A study of Mus musculus with 5 samples.

Results

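The oxidative phosphorylation subunits described here are 88 nuclear genes, out of 18820 named genes measured in mouse liver. A gene was taken when its symbol began with Ndufa, Ndufb, Ndufc, Ndufs, Ndufv, Uqcr, Cox4, Cox5, Cox6, Cox7, Cox8 or Atp5, or was Sdha, Sdhb, Sdhc or Sdhd, with pseudogenes left out. By complex this gave 43 genes for complex I, 4 for complex II, 7 for complex III, 17 for complex IV and 17 for complex V. The Ndufa prefix also brought in 7 assembly factors of complex I (Ndufaf1 to Ndufaf7), which help to build the complex and are not part of it, so 36 of the 43 are subunits. Ndufa4 and Ndufa4l2 were counted with complex I by their prefix, although Ndufa4 is found in complex IV. Cox7a2l, counted in complex IV, is a factor that joins complexes III and IV. Cox7c, Ndufa13 and Uqcrc2 were left out because their probe sets carry several gene symbols. Each gene is represented by the probe set with the highest mean over the arrays.

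Liver came from adult C57Bl/6 mice in which the labels name no genetic modification. Both groups received 300 µg of antibody by intraperitoneal injection, 3 times a week for 6 weeks. The 3 control livers had rat IgG, and the 2 treated livers had M279, an antibody against CSF1R, the receptor through which macrophages and monocytes receive survival signals. The labels do not state how many animals each sample holds, and a p-value here covers the spread among these arrays and nothing wider. The comparison asks how long exposure to the antibody alters gene expression in the liver, here in the respiratory chain.

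Oxidative phosphorylation turns the electrons of fuel molecules into ATP in the inner membrane of mitochondria. Complex I takes electrons from NADH and complex II from succinate, complex III passes them on to cytochrome c, complex IV hands them to oxygen, and complex V (ATP synthase) uses the resulting proton gradient to make ATP. Complexes I, III, IV and V have a few core subunits that carry the cofactors or the catalytic sites, and several smaller subunits around them. Complex II has only 4 subunits, of which Sdha and Sdhb were counted as core here. Sdhc, Sdhd and the c ring genes of complex V were counted as other subunits, so that group is wider than accessory subunits. Some core subunits of complexes I, III, IV and V are encoded by mitochondrial DNA, and none of these was among the named probe sets. The liver relies on this pathway for gluconeogenesis, urea synthesis and the oxidation of fatty acids.

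Promoters are shown for 5 members, 4 of which carry the palindromic core CGCATGCG of the binding motif of NRF1, a transcription factor known for acting on respiratory chain genes. The windows come from RefSeq (GRCm38.p6) and run from 250 bases before to 50 bases after a transcript start, on the strand of the gene. Ndufa11 lies at chr17:56717512-56717811 (plus strand), Uqcr11 at chr10:80406772-80407071 (minus strand), Cox6a1 at chr5:115348909-115349208 (minus strand), Atp5l at chr9:44920693-44920992 (minus strand) and Sdha at chr13:74350191-74350490 (minus strand). Capitals mark a match on either strand to CGCATGCG, to CCGGAAGT (the motif of GABP, here in Uqcr11) or to CAAGGTCA (the motif of ERRA, here in Atp5l as its reverse complement TGACCTTG). Sdha, with no match, is shown because its values on the arrays ran against those of the other 4. Picked in this way, the 5 do not show whether motif and difference go together. On the array of anti-CSF1R replicate 2, described further on, the log2 difference from the control mean was 0.605 for Ndufa11, 0.49 for Uqcr11, 0.67 for Cox6a1, 0.70 for Atp5l and -0.53 for Sdha.
Ndufa11: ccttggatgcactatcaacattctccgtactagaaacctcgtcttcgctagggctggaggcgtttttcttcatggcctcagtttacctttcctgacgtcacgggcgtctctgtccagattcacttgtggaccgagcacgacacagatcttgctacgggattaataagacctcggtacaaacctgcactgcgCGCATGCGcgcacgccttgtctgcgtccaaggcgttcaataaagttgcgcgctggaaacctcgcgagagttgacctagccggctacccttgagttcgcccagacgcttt
Uqcr11: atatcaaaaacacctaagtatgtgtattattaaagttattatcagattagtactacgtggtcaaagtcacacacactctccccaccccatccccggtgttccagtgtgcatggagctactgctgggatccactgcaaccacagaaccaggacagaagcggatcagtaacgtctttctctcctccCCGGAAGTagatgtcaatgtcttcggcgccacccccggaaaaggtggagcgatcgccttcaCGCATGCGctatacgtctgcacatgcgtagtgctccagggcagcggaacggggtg
Cox6a1: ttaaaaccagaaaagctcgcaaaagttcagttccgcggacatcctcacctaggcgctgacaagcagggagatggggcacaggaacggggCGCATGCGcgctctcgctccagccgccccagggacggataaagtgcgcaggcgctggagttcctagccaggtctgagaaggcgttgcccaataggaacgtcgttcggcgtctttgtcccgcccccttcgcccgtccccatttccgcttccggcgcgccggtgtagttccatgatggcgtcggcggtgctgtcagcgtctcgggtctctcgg
Atp5l: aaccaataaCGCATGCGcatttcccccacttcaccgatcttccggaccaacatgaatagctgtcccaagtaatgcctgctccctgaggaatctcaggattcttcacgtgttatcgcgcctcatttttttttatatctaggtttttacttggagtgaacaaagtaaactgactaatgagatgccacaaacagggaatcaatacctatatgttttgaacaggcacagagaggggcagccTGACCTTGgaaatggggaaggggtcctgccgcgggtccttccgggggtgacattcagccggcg
Sdha: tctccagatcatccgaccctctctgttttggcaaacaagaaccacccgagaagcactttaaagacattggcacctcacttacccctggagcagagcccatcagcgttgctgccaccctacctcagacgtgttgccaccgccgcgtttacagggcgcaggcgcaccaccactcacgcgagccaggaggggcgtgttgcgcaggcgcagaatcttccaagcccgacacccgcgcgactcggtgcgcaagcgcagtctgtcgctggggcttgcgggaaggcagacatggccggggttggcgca
A window was at hand for 73 members. CGCATGCG was found in 11 of the 73 (15.1%), against 559 of 27025 genes in the whole promoter table (2.07%). The matches were in Atp5g2, Atp5j, Atp5k, Atp5l, Cox6a1, Ndufa11, Ndufa8, Ndufaf4, Ndufaf5, Uqcr11 and Uqcrc1. Of those not printed, Atp5g2 lay at 0.561 on replicate 2, Atp5j at 0.334, Atp5k at 0.67 and Ndufa8 at 0.423. Ndufaf4 lay at 0.089, Ndufaf5 at -0.127 and Uqcrc1 at 0.109. Ndufa1, which had the largest difference of any member on that array (0.89), had no match. The GABP motif was found in 5 members (6.85%, against 4.31% of all genes), the ERRA motif in 4 (5.48%, against 1.76%) and TATAAA in 8 (11%, against 15.7%). The member windows also held more G and C, with a median of 58.0% over 78 windows against 52.7% over all 32851. The median difference on replicate 2 was 0.49 over the 11 members with CGCATGCG and 0.45 over those with a window and no such match. A match describes these letters and shows no binding.

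Most members had higher signal in 1 of the 2 treated livers and not in the other. On the array of anti-CSF1R replicate 2, the median member lay 0.44 above the control mean on the log2 scale (1.36-fold), and 78 of the 88 members (88.6%) lay above all 3 controls. The same position was taken by 40.5% of all named genes, whose median difference on that array was 0.04. On the array of replicate 1 the median member lay 0.03 above the control mean, with 30 members above all controls (34.1%, against 36.2% of all named genes) and 13 below all of them (14.8%, against 29.5%). Only 6 members were below all controls on replicate 2 (6.82%, against 31.2% of named genes): Ndufs1, Sdha, Atp5a1, Atp5b, Ndufaf1 and Ndufaf5. A single array has no replicate, so these positions carry no test.

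The shift on replicate 2 was also seen among members of high signal. Among named genes with a mean log2 intensity of 9 or more, 37.5% lay above all controls on that array, with a median difference of -0.03. Of the 60 members at that level, 54 lay above all controls, and their median was 0.43. On replicate 1, 24 of the 60 lay above all controls (40%, against 25.9% of named genes at that level). Another 6 lay below (10%, against 25.2%), and the median was 0.04 (against 0.001). Both treated arrays were above all controls for 40% of these members, against 16.6% of named genes at that level. A value more than 0.5 above the control mean was found for 37 members (42%) and for 4.79% of named genes. Over the 88 members, the mean level and the difference on replicate 2 had a Pearson's r of -0.07 and a Spearman's rho of -0.22. This is a description across genes that share the same arrays.

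**Figure D1:**
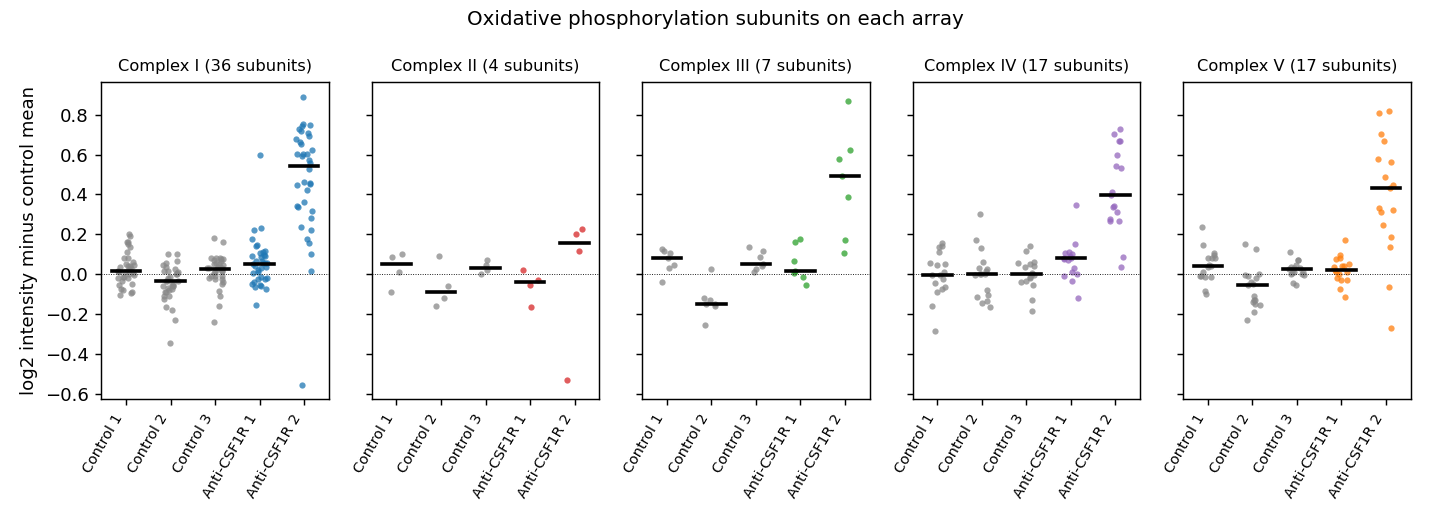
Each point is 1 subunit on 1 array, drawn as its log2 intensity minus the mean of the 3 control arrays, by complex, with a black bar at the median of each array. Points of anti-CSF1R replicate 2 lie mostly above 0, with medians of 0.54, 0.16, 0.49, 0.40 and 0.43 for complexes I to V, while the medians of replicate 1 lie between -0.04 and 0.08.

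Over both treated arrays, no member passed the test. The fit (limma on log2 intensity, two-sided, Benjamini-Hochberg adjustment over all 35556 probe sets) called 0% of probe sets at an adjusted p under 0.05, and the smallest adjusted p of a member was 0.192. The median member difference was 0.24, with 80 members higher and 8 lower by their mean, against a median of 0.04 over all named genes. At an unadjusted p under 0.05, 8 members were higher (9.09%) and none was lower, against 10.1% of all probe sets higher and 8.34% lower. Among genes with a mean log2 intensity of 9 or more, 4 of 60 members were higher (6.67%) and 0 lower. Of the 2207 named genes at that level, 50 were higher (2.27%) and 109 lower. Both treated arrays were above all controls for 30 members (34.1%, against 25.1% of named genes) and below all controls for 4 (4.55%, against 19.5%), which were Ndufs1, Atp5a1, Ndufaf1 and Ndufaf5. In a fit over 1 probe set per named gene, 16 members had an unadjusted p under 0.05 and the smallest adjusted p of a member was 0.0832, still with none called. Leaving out control replicate 1, 2 or 3 left 2, 3 or 2 members under 0.05. The median standard error (SE) of a member's difference was 0.15, and the number of arrays limits the precision. Without replicate 1, 51 members were higher and 2 lower at an unadjusted p under 0.05 (against 11.9% of all probe sets higher), and the smallest adjusted p of a member was 0.145. Without replicate 2, 2 were higher and 1 was lower (against 8.37% higher), and the smallest adjusted p was 0.32.

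Hepatocyte markers were bright on every array. Of 12 listed, 10 were measured, none below 11.3 on the log2 scale, and their summed intensity was 62960 to 65663 in controls, 65079 on replicate 1 and 64200 on replicate 2. Kupffer cell markers (11 of 12 measured), which belong to the resident macrophages of the liver, summed to 4386 to 5058 in controls, 3529 on replicate 1 and 4738 on replicate 2. On replicate 1, 9 of these 11 were below all controls and 1 was above, against 29.5% and 36.2% of named genes. On replicate 2, 3 were below and 4 above, against 31.2% and 40.5% of named genes. The same shares apply to the counts of the lists that follow. The monocyte and neutrophil list (8 of 9 measured) summed to 182 to 199 in controls, 189 on replicate 1 and 243 on replicate 2. Of the 8, 5 were above all controls on replicate 1 and 7 on replicate 2. Erythroid markers (2 of 6 measured) summed to 928 to 1027 in controls, 1006 on replicate 1 and 1173 on replicate 2, with 2 of 2 above all controls on replicate 2. The B and T cell list (7 of 8 measured) summed to 246 to 268 in controls, 222 on replicate 1 and 301 on replicate 2, with 4 of 7 above on replicate 2. Cholangiocyte markers (5 of 6 measured) summed to 251 to 276 in controls, 267 on replicate 1 and 192 on replicate 2, with 3 of 5 below on replicate 2. Sinusoidal endothelial markers (8 of 8) summed to 4366 to 4613 in controls, 4855 and 4625, with 4 of 8 below and 2 above on replicate 2. Stellate cell markers (7 of 7) summed to 4700 to 5264, then 5243 and 5243, with 4 of 7 above and 2 below on replicate 2. None of these markers is at 0 on any array. In RNA of a whole tissue, fewer cells of a type and less RNA per cell cannot be told apart, and the part of any other cell type in the member values was not tested.

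**Figure D2:**
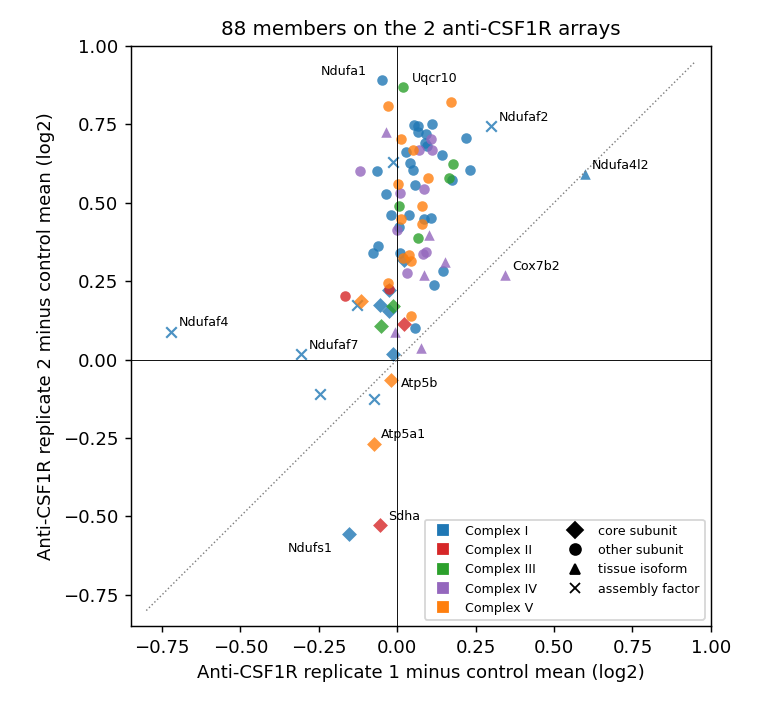
Each of the 88 members is placed by its log2 difference from the control mean on anti-CSF1R replicate 1 (horizontal) and replicate 2 (vertical), with colour for the complex and shape for the role. Both axes use the same 3 controls, so they are not independent. The 60 other subunits lie between 0.10 and 0.89 on the vertical axis, and Ndufs1 and Sdha are the lowest points, at -0.55 and -0.53.

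Within complex I, core subunits had a lower median than accessory subunits on replicate 2. The core subunits measured were Ndufs1, Ndufs3, Ndufs7, Ndufs8, Ndufv1 and Ndufv2, among which are the carriers of the flavin and the iron-sulphur clusters. Their median difference on replicate 2 was 0.16, and 4 of the 6 were above all controls (66.7%, against 40.5% of named genes). The 29 accessory subunits had a median of 0.60, and 29 of 29 were above all controls (100%, against the same 40.5%). The 2 groups overlapped, since accessory Ndufa10 (0.10), Ndufs4 (0.24) and Ndufa9 (0.28) lay under core Ndufs3 (0.32). On replicate 1 the medians were -0.03 and 0.06. The split into core and accessory subunits follows textbook roles and was drawn up with the values known, so it is a description without a test.

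Ndufs1, the largest core subunit and a carrier of iron-sulphur clusters, had log2 intensities of 9.29, 9.14 and 9.32 in controls, 9.10 on replicate 1 and 8.70 on replicate 2. Both treated values were below all controls, with a difference of -0.35 ± 0.15 (SE, n = 2 against 3, adjusted p = 0.285). Ndufv1, which binds NADH through its flavin, read 10.12, 9.95 and 10.16 in controls, 10.06 on replicate 1 and 10.09 on replicate 2, all inside 1 range. Among core subunits, Ndufs3 had the largest positive difference on replicate 2 (0.32) and lay near 0 on replicate 1 (0.02).

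The largest difference of any member on replicate 2 was that of Ndufa1. This small membrane subunit read 7.29, 6.78 and 7.31 in controls, 7.08 on replicate 1 and 8.01 on replicate 2. Only replicate 2 was outside the controls, at 0.89 above their mean, and the control values themselves spread widely. The difference over both arrays was 0.42 ± 0.31 (SE, adjusted p = 0.457). Ndufb8, a subunit of the membrane arm often used as a marker of assembled complex I, read 8.90, 8.74 and 9.06 in controls, 8.93 on replicate 1 and 9.56 on replicate 2. Again the array of replicate 1 lay among the controls, and the difference was 0.35 ± 0.21 (SE, adjusted p = 0.388).

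A smaller number of accessory subunits, 14 of 29 (48.3%, against 25.1% of named genes), were above all controls in both treated livers. Ndufa11, a membrane subunit, read 9.92, 9.92 and 9.89 in controls, 10.14 on replicate 1 and 10.52 on replicate 2. Its controls were close together and the treated arrays did not overlap them, with a difference of 0.42 ± 0.14 (SE, adjusted p = 0.227). This probe set lay 0.234 above the control mean on replicate 1 and 0.605 above it on replicate 2. A second probe set of Ndufa11 lay at 0.002 and 0.454, so the shift on replicate 1 was seen on only 1 of them. Ndufv3, an accessory subunit of the NADH-binding module, read 7.87, 8.05 and 7.92 in controls, 8.17 on replicate 1 and 8.65 on replicate 2 (difference 0.46 ± 0.17, SE, adjusted p = 0.242). Ndufa9, which sits where the arms of complex I join, read 9.53, 9.63 and 9.69 in controls, 9.76 on replicate 1 and 9.90 on replicate 2. That is a smaller shift, of 0.22 ± 0.11 (SE, adjusted p = 0.337), with both treated values above the controls. Ndufb11, another subunit of the membrane arm, read 11.44, 11.57 and 11.53 in controls, 11.60 on replicate 1 and 11.96 on replicate 2. By prefix, the replicate 2 medians were 0.60 for 14 Ndufa subunits, 0.57 for 10 Ndufb, 0.46 for 2 Ndufc, 0.24 for 7 Ndufs and 0.22 for 3 Ndufv.

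Ndufa4l2 had nearly equal shifts in both treated livers. This paralog of Ndufa4, known as a target of hypoxia-inducible factor, read 4.64, 4.61 and 4.27 in controls, 5.10 on replicate 1 and 5.09 on replicate 2. Both treated values were above all controls, at 0.60 and 0.59 above their mean. The difference of 0.59 ± 0.15 (SE) had the smallest p of all members (0.00654 unadjusted, adjusted p = 0.192). The files used here give no background measure, so it is not known how far its signal lay above background.

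The assembly factors Ndufaf1 to Ndufaf7 had a lower median on replicate 2 than the accessory subunits. Their median was -0.13 on replicate 1 and 0.09 on replicate 2. On replicate 1, 5 of the 7 were below all controls (71.4%, against 29.5% of named genes). Ndufaf1, which acts in an early membrane intermediate, read 8.88, 9.02 and 8.90 in controls, 8.69 on replicate 1 and 8.82 on replicate 2 (difference -0.18 ± 0.11, SE, adjusted p = 0.394). Ndufaf4 read 7.63, 7.42 and 7.58 in controls, 6.82 on replicate 1 and 7.63 on replicate 2, so that 1 treated array was far below the controls and the other at their upper edge. After quantile normalization or cyclic loess the replicate 2 median of the 7 was 0.19 or 0.21, and the replicate 1 median was -0.01 or -0.06. Of the 7, 2 were more than 0.5 above the control mean on replicate 2 (28.6%, against 4.79% of named genes). Ndufaf3, named after its values were seen, read 8.18, 8.10 and 8.27 in controls, 8.17 on replicate 1 and 8.81 on replicate 2. Ndufaf2, which joins late in assembly, lay above all controls in both treated livers, at 6.36, 6.64 and 6.73 in controls, 6.88 on replicate 1 and 7.32 on replicate 2 (difference 0.52 ± 0.18, SE, adjusted p = 0.236).

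**Figure D3:**
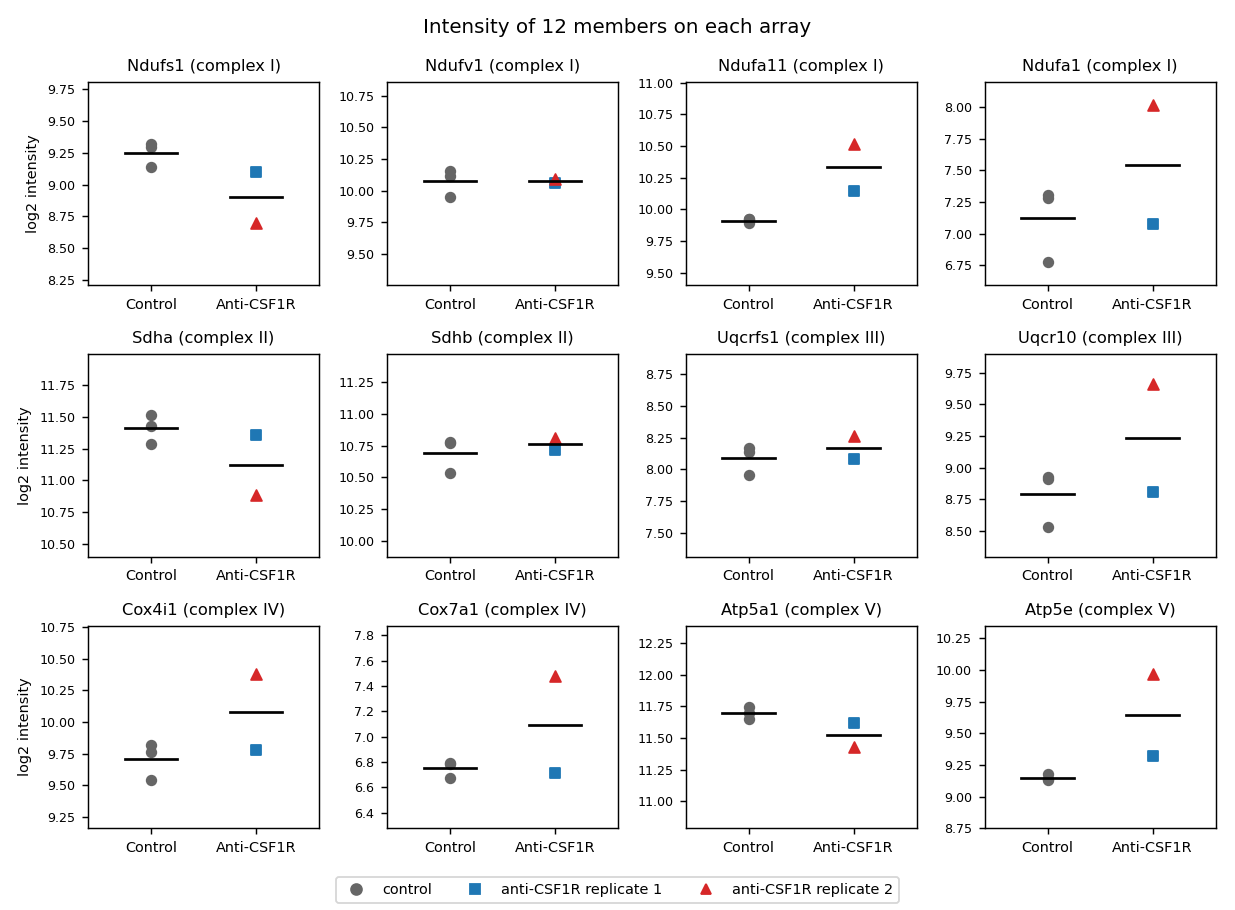
Log2 intensity of 12 members on the 3 control arrays (circles), anti-CSF1R replicate 1 (squares) and replicate 2 (triangles), with a bar at each group mean and axes of equal length but different position in each panel. Ndufa1, Uqcr10, Cox4i1 and Cox7a1 show replicate 1 among the controls and replicate 2 above them, Ndufa11 and Atp5e show both above, and Ndufs1 and Atp5a1 show both below.

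Complex II, which links the citric acid cycle to the respiratory chain, had the lowest median of the complexes on replicate 2, at 0.16. This value was 0.07 after quantile normalization, and the median over both treated arrays, 0.04, was then -0.003. Sdha, the flavoprotein that oxidises succinate, read 11.51, 11.29 and 11.43 in controls, 11.36 on replicate 1 and 10.88 on replicate 2. It was below all controls only on replicate 2, by 0.53 against their mean, and the difference over both arrays was -0.29 ± 0.17 (SE, adjusted p = 0.371). Sdhb, the iron-sulphur subunit, read 10.78, 10.54 and 10.77 in controls, 10.71 on replicate 1 and 10.81 on replicate 2. The membrane anchors were slightly above the controls on replicate 2, Sdhc at 10.46, 10.64 and 10.55 in controls against 10.52 and 10.78, and Sdhd at 10.16, 10.09 and 10.20 against 9.98 and 10.35. The differences of Sdhb, Sdhc and Sdhd over both arrays were 0.07, 0.10 and 0.02, each smaller than its SE of 0.13, 0.13 and 0.14.

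In complex III, the 2 genes counted as core had a median of 0.14 on replicate 2, below that of the small subunits. Uqcrc1, a protein of the matrix side without a cofactor, was counted as core by its name. It read 10.51, 10.23 and 10.41 in controls, 10.33 on replicate 1 and 10.49 on replicate 2, within the range of the controls. Uqcrfs1, the Rieske iron-sulphur protein, read 8.17, 7.96 and 8.14 in controls, 8.08 on replicate 1 and 8.26 on replicate 2. The 5 small subunits had a median of 0.07 on replicate 1 and 0.58 on replicate 2. Those 5 were all above the controls on replicate 2 (100%, against 40.5% of named genes).

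Uqcr10 gave the largest shift of this complex, at 8.91, 8.54 and 8.93 in controls, 8.81 on replicate 1 and 9.66 on replicate 2 (0.87 above the control mean). Over both arrays its difference was 0.44 ± 0.27 (SE, adjusted p = 0.388), and replicate 1 lay among the controls. Uqcrh, the acidic hinge protein by which cytochrome c1 meets cytochrome c, read 10.98, 10.84 and 11.04 in controls, 11.13 on replicate 1 and 11.58 on replicate 2. Both treated values were above all controls (difference 0.40 ± 0.16, SE, adjusted p = 0.269). Its probe sets, however, spread by 0.50 on replicate 2, the largest spread among the 23 members with several probe sets. Uqcrb, which binds ubiquinone next to cytochrome b, read 11.29, 11.03 and 11.22 in controls, 11.25 on replicate 1 and 11.57 on replicate 2. Cyc1, the cytochrome c1 of this complex, falls outside the prefixes, so it is not in the core count. It read 10.97, 11.04 and 11.03 in controls, 11.03 on replicate 1 and 11.31 on replicate 2, above all controls only on the last. Cycs, the soluble cytochrome c, differed by 0.02 ± 0.13 (SE, adjusted p = 0.928).

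Nuclear subunits of complex IV surround a core that is made in the mitochondrion, so none of them counts as core here. The 10 subunits found in most tissues had a median of 0.08 on replicate 1 and 0.54 on replicate 2. Cox4i1, which is needed to assemble the complex, read 9.82, 9.54 and 9.76 in controls, 9.78 on replicate 1 and 10.38 on replicate 2. Replicate 1 was inside the controls, and the difference was 0.37 ± 0.20 (SE, adjusted p = 0.347). Cox5a read 8.49, 8.20 and 8.35 in controls, 8.36 on replicate 1 and 8.88 on replicate 2, and Cox5b read 10.86, 11.07 and 10.90, then 11.03 and 11.49. For both, only replicate 2 left the range of the controls.

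Cox7a2 and Cox6a1, the forms of these subunits used outside muscle, had the largest differences of complex IV over both arrays. Cox7a2 read 9.68, 9.41 and 9.54 in controls, 9.65 on replicate 1 and 10.25 on replicate 2 (difference 0.41 ± 0.20, SE, adjusted p = 0.317). Cox6a1 read 9.85, 9.70 and 9.85 in controls, 9.91 on replicate 1 and 10.47 on replicate 2 (difference 0.39 ± 0.18, SE, adjusted p = 0.305), with both treated values above all controls. Cox6c, a small membrane subunit, read 12.37, 12.24 and 12.36 in controls, 12.41 on replicate 1 and 12.66 on replicate 2.

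The 7 isoforms of complex IV known from muscle, lung or testis were also measured. Cox7a1, the form of heart and skeletal muscle, read 6.67, 6.78 and 6.79 in controls, 6.71 on replicate 1 and 7.48 on replicate 2, so that only replicate 2 lay outside the controls, by 0.73 above their mean. Cox8b, another muscle form, read 3.79, 4.01 and 3.70 in controls, 3.93 on replicate 1 and 4.23 on replicate 2. Cox6a2, also of muscle, read 5.23, 5.23 and 5.24 in controls, 5.22 on replicate 1 and 5.32 on replicate 2. All 3 were above the controls on replicate 2 alone, and the median of the 7 isoforms was 0.09 on replicate 1 and 0.27 on replicate 2. The 10 striated muscle markers summed to 174 to 176 in controls, 197 on replicate 1 and 187 on replicate 2. Of these, 5 were above all controls on replicate 1 and 3 on replicate 2. The adipocyte list (7 of 8 measured) summed to 141 to 154 in controls, 167 on replicate 1 and 193 on replicate 2. Of the 7, 6 were above all controls on replicate 1 and 7 on replicate 2. Of all named genes, 36.2% were above on replicate 1 and 40.5% on replicate 2. The part of muscle or fat cells in the isoform values was not tested.

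The other isoforms included Cox4i2, a lung form, at 4.36, 4.53 and 4.66 in controls, 4.67 on replicate 1 and 4.83 on replicate 2. Cox6b2, of testis, read 4.44, 4.30 and 4.10 in controls, 4.36 on replicate 1 and 4.55 on replicate 2. Cox8c, also of testis, read 3.62, 4.20 and 3.88 in controls, 3.98 on replicate 1 and 3.94 on replicate 2, inside the controls. Cox7b2, another testis form, read 2.29, 2.24 and 2.19 in controls, 2.59 on replicate 1 and 2.51 on replicate 2. Both of its treated values were above all controls (difference 0.31 ± 0.10, SE, adjusted p = 0.231), and how far its signal lay above background is not known either.

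In complex V, the alpha and beta subunits of the catalytic head were below all controls on replicate 2. The other 15 members were above all controls (88.2%, against 40.5% of named genes). Atp5a1, the alpha subunit, read 11.74, 11.65 and 11.70 in controls, 11.62 on replicate 1 and 11.43 on replicate 2, with both treated values below all controls (difference -0.17 ± 0.11, SE, adjusted p = 0.417). Atp5b, the beta subunit with the catalytic sites, read 12.27, 12.18 and 12.24 in controls, 12.21 on replicate 1 and 12.16 on replicate 2, a difference of -0.04 ± 0.10 (SE). Atp5c1, the gamma subunit of the rotating stalk, read 10.26, 10.01 and 10.18 in controls, 10.04 on replicate 1 and 10.34 on replicate 2. Atp5d, the delta subunit of the central stalk, read 12.46, 12.46 and 12.48 in controls, 12.51 on replicate 1 and 12.61 on replicate 2, a small shift above all controls in both livers.

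Atp5e, the epsilon subunit at the foot of the central stalk, stood apart from the rest of the head and stalk. It read 9.13, 9.13 and 9.18 in controls, 9.32 on replicate 1 and 9.97 on replicate 2, with both treated values above all controls (difference 0.50 ± 0.20, SE, adjusted p = 0.264). Atp5mpl, a small membrane subunit, read 9.38, 8.91 and 9.14 in controls, 9.11 on replicate 1 and 9.95 on replicate 2, so that only replicate 2 was above the controls, by 0.81. Atp5o, the OSCP protein that ties the head to the peripheral stalk, read 9.55, 9.32 and 9.49 in controls, 9.55 on replicate 1 and 10.03 on replicate 2. By position in the enzyme, the replicate 2 medians were 0.14 for 5 subunits of head and central stalk, 0.32 for 3 genes of the c ring, 0.38 for 4 of the peripheral stalk and 0.67 for 5 of the membrane part and dimer interface. On replicate 1 those medians were -0.02, 0.02, 0.06 and 0.01.

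Over all complexes, the 13 subunits counted as core, Uqcrc1 among them, had a median of -0.03 on replicate 1 and 0.12 on replicate 2. On replicate 2, 7 of them were above all controls, 4 below (Ndufs1, Sdha, Atp5a1 and Atp5b) and 2 inside (Ndufv1 and Uqcrc1). These shares, 53.8% above and 30.8% below, stand beside 40.5% and 31.2% of all named genes, so the count below is near the background. The medians also depend on scaling: that of replicate 2 was 0.03 after quantile normalization and 0.065 after cyclic loess, and that of replicate 1 was 0.006 with arrays centred on their medians. Of the 13, none was more than 0.5 above the control mean. Of the 60 other subunits, 60 were above all controls on replicate 2, with a median of 0.55. A value more than 0.5 above the control mean was found for 33 (55%, against 4.79% of named genes). On replicate 1, 26 of these 60 were above all controls (43.3%, against 36.2%) and 4 below (6.67%, against 29.5%), with a median of 0.05. All of these members are read from the same array, so they are not replicates of the treatment, and no group of members was tested against another.

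Further probe sets of the same genes gave the same sign on replicate 2. There were 32 of them for 23 members, and all 32 lay above the control mean on that array, with a median spread within a gene of 0.07. Ndufs1, Sdha, Atp5a1, Atp5b, Ndufaf1 and Ndufaf5, the members below all controls there, had 1 probe set each. The agreement therefore covers only members that were already above the control mean. Many small subunits have processed pseudogenes of nearly the same sequence, and signal from such copies cannot be told apart from that of the gene where probes match both.

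Genes that assemble, feed or regulate the respiratory chain were read from the same fit, which called none of them. The 49 assembly factors measured (of 53 listed, Ndufaf1 to Ndufaf7 included) had medians of -0.08 on replicate 1 and 0.21 on replicate 2. On replicate 1, 24 of them were below all controls (49%, against 29.5% of named genes) and 5 above (10.2%, against 36.2%). On replicate 2, 13 were below (26.5%, against 31.2%) and 32 above (65.3%, against 40.5%). The replicate 1 median was above 0 after quantile normalization or cyclic loess (0.02 and 0.01), so its direction depends on scaling. Taco1, an activator of Cox1 translation, read 7.83, 7.72 and 7.995 in controls, 7.62 on replicate 1 and 7.27 on replicate 2 (difference -0.40 ± 0.15, SE, adjusted p = 0.249). Fmc1, an assembly factor of complex V, differed the other way by 0.51 ± 0.20 (SE, adjusted p = 0.256).

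The citric acid cycle and pyruvate dehydrogenase did not follow the accessory subunits. Their 15 measured genes (of 17) had medians of 0.04 on replicate 1 and -0.16 on replicate 2, where 9 were below all controls (60%, against 31.2% of named genes) and 2 above (13.3%, against 40.5%). Ogdh, a subunit of 2-oxoglutarate dehydrogenase, read 10.34, 10.23 and 10.28 in controls, 10.19 on replicate 1 and 9.67 on replicate 2. Both treated values were below the controls (difference -0.35 ± 0.17, SE, adjusted p = 0.314). Coenzyme Q synthesis (11 of 13 measured) had medians of -0.15 and 0.08. Its gene of smallest p was Coq10a, a coenzyme Q-binding protein, at 0.42 ± 0.13 (SE, adjusted p = 0.212). Carriers of adenine nucleotides and phosphate, uncoupling proteins and porins (10 of 11 measured) had medians of 0.03 and 0.15.

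Regulators of mitochondrial genes gave differences in both directions, with 5 higher and 13 lower by their mean. Ppargc1a, the coactivator PGC-1alpha, read 7.47, 7.93 and 7.70 in controls, 7.40 on replicate 1 and 7.23 on replicate 2 (difference -0.38 ± 0.16, SE, adjusted p = 0.283). Ppargc1b, its relative PGC-1beta, read 6.08, 6.33 and 6.38 in controls, 6.57 on replicate 1 and 6.63 on replicate 2 (difference 0.34 ± 0.13, SE, adjusted p = 0.258). Pprc1, another member of this family, read 6.18, 6.05 and 6.02 in controls, 5.57 on replicate 1 and 5.56 on replicate 2. None of these overlapped between the groups, and Pprc1, at -0.52 ± 0.11 (SE, adjusted p = 0.189), had the smallest p of its list. Both treated arrays were below all controls for 8 of the 18 regulators (44.4%, against 19.5% of named genes). They were above all controls for 3 (16.7%, against 25.1%). Nrf1, Esrra and Tfam differed by -0.03 each, less than their SE of 0.11, 0.16 and 0.17, and Gabpa by -0.23 ± 0.13 (SE, adjusted p = 0.356). Over the 18 regulators measured (of 21), the medians were -0.11 on replicate 1 and -0.15 on replicate 2, and the first of these turned positive with quantile normalization or cyclic loess (0.05 and 0.03).

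Ribosomal protein genes shared the shift of replicate 2. The 68 cytosolic ribosome genes had medians of 0.04 on replicate 1 and 0.57 on replicate 2, where 67 were above all controls (98.5%, against 40.5% of named genes). The 74 genes of the mitochondrial ribosome, which makes the core subunits encoded by mitochondrial DNA, had medians of -0.05 and 0.36, with 61 above all controls on replicate 2 (82.4%). The 25 genes of mitochondrial import had medians of -0.02 and 0.34, with 17 above (68%). Rpl27a, a protein of the large cytosolic subunit, lay 0.17 above the control mean on replicate 1 and 0.91 above it on replicate 2. Replicate 1 medians of the mitochondrial ribosome and import lists were above 0 after quantile normalization (0.02 and 0.05). The shift on replicate 2 thus took in ribosomal and import genes as well as subunits of the respiratory chain, and its relation to any property of that sample was not tested.

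**Figure D4:**
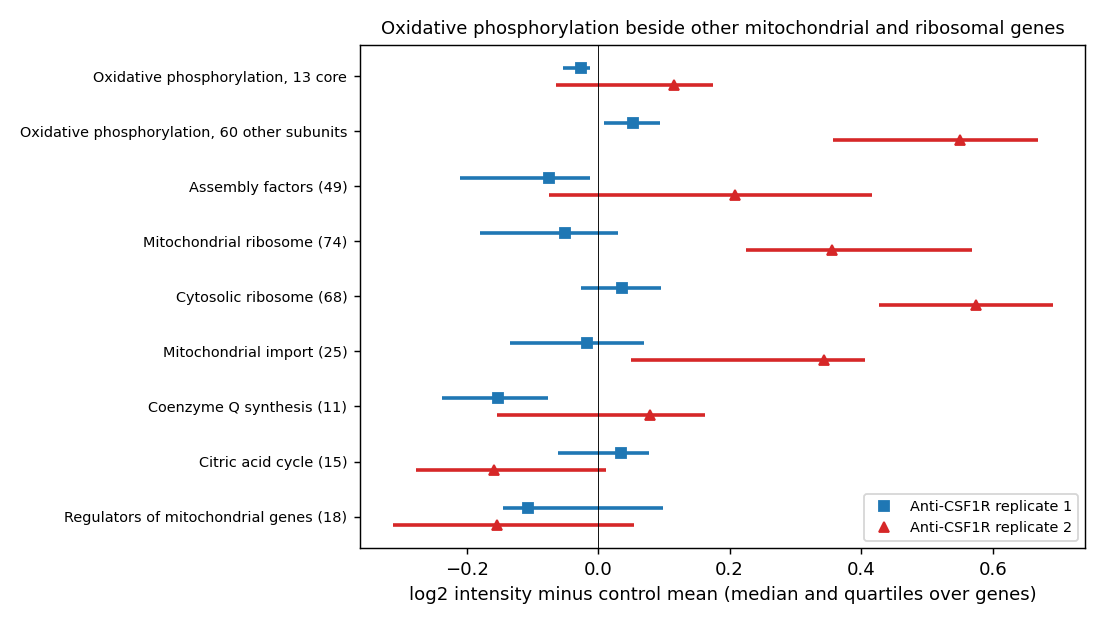
Median (symbol) and quartiles (line) over genes of the log2 difference from the control mean, for anti-CSF1R replicate 1 (squares) and replicate 2 (triangles), with the number of genes in each list. On replicate 2 the 60 other subunits (0.55) and the cytosolic ribosome (0.57) lie farthest to the right, and the citric acid cycle (-0.16) and the regulators (-0.15) lie to the left of 0.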

How the data were processed

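Per the labels' protocols, total RNA of liver was amplified with the NuGEN Pico SL kit and its cDNA was biotin-labelled for Affymetrix arrays. The deposited table holds 1 linear intensity per probe set and array, for 35556 probe sets on 5 arrays (3 control, 2 anti-CSF1R). Per the submitters' processing notes, the software was Affymetrix Expression Console 1.1, with settings not given in the sources used here. Array medians lay between 32.5 and 33.9, and pairs of arrays correlated at 0.9825 to 0.9917 over log2 values. Amplification, and any method that draws arrays together, can alter differences between them.

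Intensities were used as log2 values, without a pseudocount, a filter or added normalization. Probe sets were named through the platform annotation, which can be old: 21218 had 1 symbol, 1881 had several and 12457 were unlisted. All 88 members matched the RefSeq table of GRCm38.p6. The groups were fitted in limma 3.58.1 (R 4.3.3, lmFit with eBayes, 3 residual degrees of freedom). Adjustment by Benjamini-Hochberg ran over the whole table, and members were read from that fit. With 2 arrays against 3, the smallest p of an exact permutation test is 0.1, and no such test was run. Each treated array was also set against the control mean and range without a test. The steps were tested on simulated data.

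The members and gene lists were chosen with earlier results of these data known. Genes were named by a rule: defining subunits and isoforms, per complex the 2 largest differences each way and the highest signal, the 5 smallest p in each direction, and up to 3 genes of smallest p per list. The rule's fixed list of regulators and cytochromes was added. Ndufa1, Ndufs3, Ndufaf3, Ndufaf5, the promoters printed and the genes named for a motif were chosen after their values were seen. Promoter matches were counted on both strands of windows of 300 bases. Alternatives were other normalizations, leaving out each array, the replicate number as a block, a filter at the 25th percentile of signal, another variance model, 1 probe set per gene, the mean of a gene's probe sets and structural subunits only. Figures were drawn with matplotlib 3.10.9.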

Additional observations from a re-analysis of the deposited data

How the results depend on the processing

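With 2 treated arrays that differ in most members, the second decides the values over both. Leaving out each array in turn moved the median member difference (0.24 over both treated arrays) between 0.033 and 0.44, that of complex I between 0.053 and 0.544, complex II between -0.04 and 0.158, complex III between 0.017 and 0.491, complex IV between 0.082 and 0.399 and complex V between 0.02 and 0.433. In each case the higher value is that without anti-CSF1R replicate 1 and the lower that without replicate 2. The count of members above all controls on both treated arrays (30) ranged from 30 to 78, and the count below (4) from 4 to 13. Leaving out an array removes a condition, so these counts could only stay or rise. The upper ends are the counts above on replicate 2 alone and below on replicate 1 alone. The count below was 1 with arrays centred on their medians and 7 without control replicate 2. The replicate 2 median of 0.44 became 0.331 after quantile normalization, 0.364 after cyclic loess and 0.484 after centring on medians, and kept its sign. Complex II over both treated arrays was -0.003 after quantile normalization. Members called stayed at 0 under all alternatives, while a fit over 1 probe set per named gene called 14 probe sets (5 higher, 9 lower), none of them a member. The members with an unadjusted p under 0.05 were 16 in that fit and 8 over all probe sets, so it differs in more than the number of tests. In that fit eBayes, which draws each variance toward a value estimated from the probe sets fitted, was rerun on those probe sets alone. Replicate numbers 1 and 2 occur in both groups, and deviations of same-numbered arrays from their group means correlated at 0.027 and 0.033. The deviations of the 2 treated arrays mirror each other, so these values are not independent and cannot exclude a pairing. With the number as a replicate block, 0 members and 0 probe sets were called and the median member difference was 0.247. Of 40 named members, 5 turned sign under an alternative other than leaving out an array: Atp5d (-0.035, cyclic loess), Cox8c (-0.072, quantile; -0.092, cyclic loess), Ndufv1 (-0.035, quantile; under 0.001 from 0, cyclic loess), Sdhd (-0.013, quantile) and Uqcrc1 (-0.009, quantile); the cause was not tested. Leaving out 1 array turned the sign of 12: Atp5c1 (-0.114 to 0.185), Atp5mpl (-0.031 to 0.807), Cox6a2 (-0.008 to 0.088), Cox7a1 (-0.036 to 0.727), Cox8c (-0.085 to 0.207), Ndufaf4 (-0.72 to 0.089), Ndufv1 (-0.06 to 0.043), Sdhb (-0.012 to 0.115), Sdhc (-0.027 to 0.227), Sdhd (-0.167 to 0.201), Uqcrc1 (-0.053 to 0.109) and Uqcrfs1 (-0.012 to 0.17). The test without 1 treated array assumes that the other varies like the controls.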
